A study of Mus musculus with 30 samples.

Results

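B lymphocytes and CD4 T lymphocytes purified from mouse spleen and never cultured were compared on 6 of the series' 30 arrays, 3 for each cell type, chosen by their titles alone. Both groups came from male C57Bl/6 mice aged 6 to 10 weeks, with no genetic change or treatment named in the labels. The B arrays carry the letters G, E and K and the CD4 arrays A, B and C, and values below are given in those orders. Whether the 3 arrays of a cell type stem from separate mice is not stated. The p-values therefore cover only the spread among arrays within groups, which could be technical. That spread was pooled over all 10 groups of the series. The descriptions of the T cell arrays also name B cells, and each array was taken as the cell type in its title. How pure the cells were, and by which surface markers they were selected, was not given in the sources used here.

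In the main fit all 30 arrays of the series shared the estimate of spread. Further groups are also set beside this comparison, with contrasts of their own. These are fresh CD8 T cells (3 arrays, A, B and C), B cells cultured with 10 ng/ml IL-4 and 10 ug/ml anti-IgM, an antibody to the antigen receptor (3 arrays), and CD4 cells cultured with IL-2 at 4 ng/ml together with IL-4 at 10 ng/ml (3 arrays), all from mice of the same strain, sex and age range. The labels name no T cell stimulus other than the cytokines. The array is a custom Affymetrix design for glycan-related genes that also covers cytokines, chemokines, their receptors and adhesion molecules, and each value is a signal intensity of 1 probe set. Among the 6 fresh B and CD4 arrays CD4 C stood apart in its RNA control signals, with 3'/5' ratios of 7.62 for beta-actin and 4.97 for Gapdh, against ranges of 1.06 to 1.19 and 1.04 to 1.62 on the other 5 arrays.

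Mature B cells and CD4 T cells share the lymphoid organs but sense their surroundings through different receptors. Naive T cells depend on interleukin-7 for survival, and follicular B cells follow the chemokine CXCL13 into the follicle through CXCR5. Both cell types carry dense surface glycans. Those glycans are built by glycosyltransferases in the Golgi and read by lectins such as the selectins, the galectins and the sialic acid-binding Siglecs, of which CD22 restrains signalling by the B-cell antigen receptor.

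Of 746 probe sets tested on the log2(signal + 16) scale, 50 differed between fresh B and fresh CD4 arrays (limma adjusted p under 0.05), which is 6.7% of those tested. On this scale the difference is the mean of B minus the mean of CD4, it understates changes of dim genes, and its median over all probe sets was -0.03. Higher in B were 21 probe sets (2.82%) and lower were 29 (3.89%), while 119 had an unadjusted p under 0.05. That order turned round without CD4 A (22 higher, 16 lower), without B K (23 and 19), without the pair B G and CD4 A (17 and 13) and with the 6 compared arrays fitted alone (9 and 6). The B and CD4 values did not overlap on any array for 133 probe sets (17.8%), among them 48 of the 50 called (6.43% of all tested). With 1 probe set for each of 375 named genes, 28 genes were called (7.47%), 13 higher and 15 lower in B. Without CD4 C those gene counts were 12 and 21, and without CD4 A 13 and 9.

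**Figure D1:**
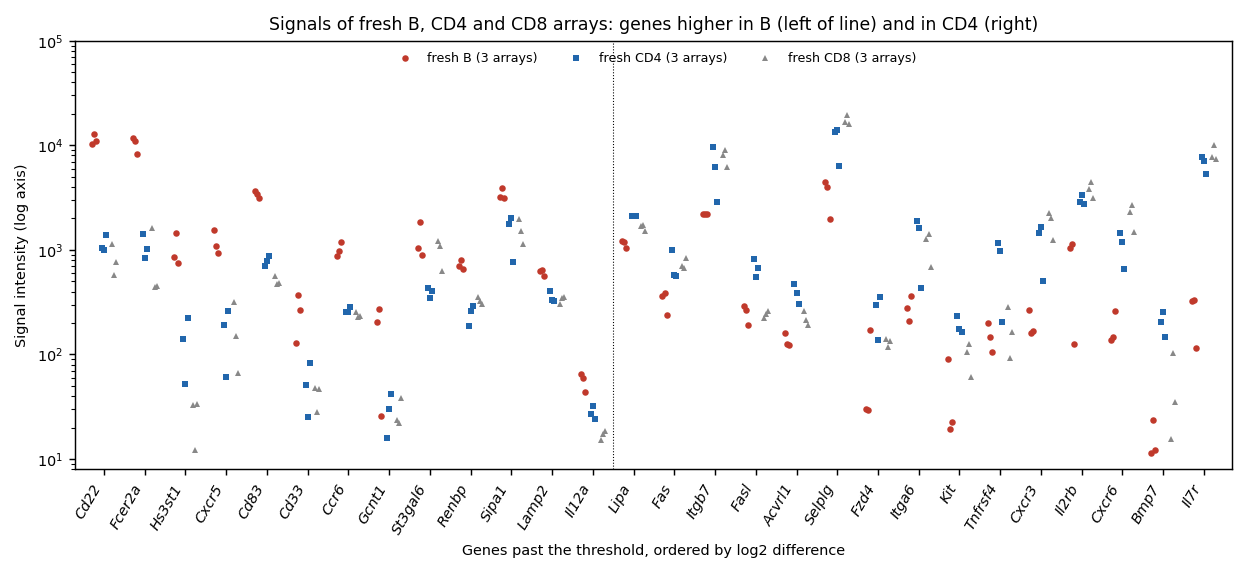
Signal intensity (log axis) of every fresh B, CD4 and CD8 array for the 28 named genes that differed between fresh B and fresh CD4 cells, ordered by their log2 difference; each point is 1 array, and signals of different genes are not comparable. B and CD4 points separate for 26 genes and overlap for Gcnt1 and Fzd4; CD8 points lie apart from the CD4 points for St3gal6, Fasl and Bmp7.

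The clearest differences toward B cells were in surface proteins that mark that lineage. Cd22, the Siglec that binds sialic acid on neighbouring glycoproteins and dampens antigen receptor signalling, gave 10301, 12771 and 10895 on the B arrays and 1031, 1008 and 1388 on the CD4 arrays. The groups were far apart and the mean B signal was 9.91 times the mean CD4 signal (log2 difference 3.30 ± 0.32 (SE), limma adjusted p = 6.92e-08). Fcer2a encodes CD23, a C-type lectin that binds IgE, and its signals were 11866, 11109 and 8291 on the B arrays and 1432, 828 and 1028 on the CD4 arrays. No arrays overlapped, with a 9.51-fold ratio of the means (log2 difference 3.25 ± 0.42 (SE), limma adjusted p = 6.92e-06). Both readings come from probe sets whose suffix marks probes shared between transcripts, and each gene also has a probe set without that mark. That probe set gave 3158, 2760.5 and 5252 on the B arrays and 174, 268 and 252 on the CD4 arrays for Cd22 (log2 difference 3.88 ± 0.53 (SE), limma adjusted p = 1.44e-05). For Fcer2a it gave 5142, 4014 and 5952 on the B arrays and 349, 203 and 304 on the CD4 arrays (log2 difference 4.08 ± 0.56 (SE), limma adjusted p = 1.44e-05). These signals come from purified cell populations, in which fewer cells of a type and less RNA per cell cannot be told apart.

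The annotated start regions of both genes are shown because Cd22 and Fcer2a carry the largest differences toward B (RefSeq, GRCm38.p6, 250 bases before to 50 after the start, both on the minus strand, at chr7:30878979-30879278 and chr8:3694125-3694424). Capitals mark the one match in each to the motifs searched, CCCNNGGG in Cd22 at position -48 from the start and TGTGGT, here on its opposite strand, in Fcer2a at position -238.
Cd22: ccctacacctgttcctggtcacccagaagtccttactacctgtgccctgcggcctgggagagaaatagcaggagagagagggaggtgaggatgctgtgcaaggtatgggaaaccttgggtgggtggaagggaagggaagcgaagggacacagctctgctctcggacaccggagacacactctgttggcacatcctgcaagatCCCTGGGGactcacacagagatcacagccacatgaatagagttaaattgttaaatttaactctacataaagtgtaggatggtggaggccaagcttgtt
Fcer2a: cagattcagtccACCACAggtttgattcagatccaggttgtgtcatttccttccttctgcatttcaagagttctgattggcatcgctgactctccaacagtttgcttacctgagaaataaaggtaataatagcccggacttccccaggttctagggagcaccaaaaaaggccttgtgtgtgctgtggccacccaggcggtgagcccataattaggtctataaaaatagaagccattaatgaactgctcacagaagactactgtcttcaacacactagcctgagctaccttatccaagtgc
Fcer2a has 3 annotated windows, of which the first listed is printed.

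Cd33, another Siglec, known in mice mainly from myeloid cells, gave 128, 368 and 265 on the B arrays and 51.3, 25.3 and 82.3 on the CD4 arrays. Its groups did not overlap (log2 difference 1.94 ± 0.53 (SE), limma adjusted p = 0.0226), but the call ended without any 1 of the arrays B E, B K, CD4 A or CD4 B (limma adjusted p = 0.064 to 0.134). The other Siglecs measured, Siglece (-0.52 ± 0.61, limma adjusted p = 0.815) and Siglec1, the sialoadhesin of macrophages (-0.31 ± 0.58, limma adjusted p = 0.89), did not pass the threshold. Of 4 Siglecs 2 were thus higher in B and none lower, against 13 higher of all 375 named genes. Without any 1 of B E, B K, CD4 A or CD4 B only 1 Siglec, Cd22, was called. Cd83, a surface protein of activated B cells and mature dendritic cells, had signals of 3661, 3417 and 3149 on the B arrays and 704, 776 and 872 on the CD4 arrays. Every B array exceeded every CD4 array by a wide margin for Cd83 (log2 difference 2.10 ± 0.28 (SE), limma adjusted p = 1.31e-05). Cd72, a B-cell lectin that inhibits antigen receptor signalling, overlapped between the groups at dim signal, with 123, 196 and 229 on the B arrays and 130.1, 116 and 51.3 on the CD4 arrays (log2 difference 0.83 ± 0.52 (SE), limma adjusted p = 0.474). Of 4 measured B-cell markers, 3 were higher in B (Cd22, Fcer2a and Cxcr5), with a median difference of 3.05; without any 1 of the 6 arrays the count was also 3.

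The largest difference in the other direction was Il7r, the interleukin-7 receptor alpha chain that naive T cells need for survival. Its signals were 324, 333 and 116 on the B arrays and 7728, 7108 and 5289.9 on the CD4 arrays. Every CD4 array exceeded every B array, and the mean CD4 signal was 26 times the mean B signal (log2 difference -4.73 ± 0.36 (SE), limma adjusted p = 1.5e-09). The call held in all 21 alternatives run, with differences between -5.19 and -4.27. Its start region (RefSeq, GRCm38.p6, minus strand, chr15:9529827-9530126) is printed as the counterpart of the B-cell genes, with capitals on its single motif match, TGTGGT, which begins at an offset of 3 bases from the start.
Il7r: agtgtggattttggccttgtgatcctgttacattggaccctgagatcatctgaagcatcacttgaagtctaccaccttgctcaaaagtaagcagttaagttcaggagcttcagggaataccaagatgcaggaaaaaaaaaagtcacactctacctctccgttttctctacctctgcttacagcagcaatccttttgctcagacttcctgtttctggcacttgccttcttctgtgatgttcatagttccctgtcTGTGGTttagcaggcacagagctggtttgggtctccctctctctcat

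The motifs searched on both strands were CCCNNGGG (of the kind bound by EBF factors), TGTGGT (RUNX), GAGGAA (ETS), ATGCAAAT (octamer) and CTTTGA (TCF). None of the matches in the 3 printed windows overlap each other. Over all 32851 windows in the table, CCCNNGGG occurs in 13.7%, TGTGGT in 16.8%, GAGGAA in 28.3%, ATGCAAAT in 1.74% and CTTTGA in 5257 windows. Of the 26 called genes named by the rule given under processing, 19 had a window, 10 higher in B and 9 higher in CD4. CCCNNGGG occurred in 3 of the 10 and 4 of the 9, against 15.4% of all genes in the table, and TGTGGT in 4 of the 10 and 3 of the 9, against 18.9%. GAGGAA occurred in 5 of the 10 and 4 of the 9, against 31.25%. CTTTGA occurred in 3 of the 10 and 3 of the 9, against 18.2%, and ATGCAAAT in 1 of the 10 and 0 of the 9, against 1.97%. A match is a run of letters, not a shown binding site.

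Among the listed cytokine and growth factor receptors, Il2rb and Kit were called besides Il7r, both lower in B cells. Il2rb, the beta chain shared by the interleukin-2 and interleukin-15 receptors, gave 1031, 1137 and 126 on the B arrays and 2888, 3326 and 2774 on the CD4 arrays. All CD4 arrays exceeded all B arrays, and within the B group array K stood well below G and E (log2 difference -2.43 ± 0.51 (SE), limma adjusted p = 0.00245). Without B K the difference was -1.45 (limma adjusted p = 0.0099). Kit, the receptor for stem cell factor, was dim in both groups at 90.1, 19.3 and 22.5 on the B arrays and 234, 174 and 164 on the CD4 arrays (log2 difference -1.96 ± 0.41 (SE), limma adjusted p = 0.0025). The groups did not overlap. Il12rb1, a chain of the interleukin-12 and interleukin-23 receptors, was at 30.1, 19.7 and 41.3 on the B arrays and 215, 99.2 and 61.3 on the CD4 arrays, which also did not overlap but missed the threshold (log2 difference -1.48 ± 0.51 (SE), limma adjusted p = 0.0847). Of 33 measured cytokine and growth factor receptors, none was higher in B, 3 were lower and 30 did not pass, with a median difference of 0.02. Over all named genes 28 of 375 were called (7.47%). Csf3r, the receptor for granulocyte colony-stimulating factor, leaned the other way without passing (0.87 ± 0.29, limma adjusted p = 0.077), as did Il10ra, the interleukin-10 receptor alpha chain (0.62 ± 0.29, limma adjusted p = 0.268).

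Chemokine receptors divided between the cell types. Cxcr5, which guides B cells to follicles, gave 1545, 1095 and 937 on the B arrays and 192, 60.9 and 262 on the CD4 arrays, with no overlap (log2 difference 2.84 ± 0.54 (SE), limma adjusted p = 0.000906). Ccr6, the receptor for CCL20, gave 866, 980.5 and 1193 on the B arrays and 254, 254 and 286 on the CD4 arrays, and the lowest B value was over 3 times the highest CD4 value (log2 difference 1.86 ± 0.41 (SE), limma adjusted p = 0.00401). Toward CD4, Cxcr6, the receptor for CXCL16 on effector and memory T cells, gave 139, 148 and 262 on the B arrays and 1467, 1177 and 652 on the CD4 arrays. Those groups were separate, with CD4 C the lowest of its group and B K the highest of its own (log2 difference -2.46 ± 0.37 (SE), limma adjusted p = 4.85e-05). Cxcr3, the receptor for CXCL9 and CXCL10 on type 1 T cells, gave 265, 160.1 and 169 on the B arrays and 1464, 1654 and 509 on the CD4 arrays (log2 difference -2.38 ± 0.62 (SE), limma adjusted p = 0.0152). Its groups did not overlap, yet the call ended without any 1 of B E, B K, CD4 A or CD4 B (limma adjusted p = 0.0575 to 0.0855). Ccr7, which directs lymphocytes to T-cell zones, was lower on every B array, at 1676, 2065 and 1946 against 4605, 4101 and 2367, and did not pass (log2 difference -0.90 ± 0.41 (SE), limma adjusted p = 0.248).

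Among 13 measured chemokine receptors 2 were higher, 2 lower and 9 not called, with a median of -0.63. None of 27 measured chemokines was called in either direction (median -0.03). The one chemokine with the largest size was Ccl1 (-1.07 ± 0.86, limma adjusted p = 0.663). Ccl5, a product of memory T and natural killer cells, overlapped between groups at 2190.3, 2769.6 and 412 on the B arrays and 2076, 3239 and 648 on the CD4 arrays (-0.26 ± 0.52, limma adjusted p = 0.9), with the lowest value of each group on K and on C. Of 23 interleukins, interferons and other cytokines, 1 was called, the dim Il12a, the p35 subunit of interleukin-12, at 65.1, 59.4 and 44.2 on the B arrays and 27, 32.4 and 24.4 on the CD4 arrays (log2 difference 0.71 ± 0.20 (SE), limma adjusted p = 0.0257). Il12a was named after its values were seen, and its call ended when CD4 C, CD4 A, B G or B E was left out.

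The genes of the tumour necrosis factor family that passed (Tnfrsf4, Fas and Fasl) were all lower in B, and most measured ones were not called. Tnfrsf4, the costimulatory receptor OX40, gave 199, 147 and 105 on the B arrays and 1172, 972 and 206 on the CD4 arrays. CD4 C was far below CD4 A and B, and close to the highest B array (log2 difference -1.98 ± 0.51 (SE), limma adjusted p = 0.015). The call was lost without any 1 of B K, CD4 A or CD4 B (limma adjusted p = 0.0773 to 0.107). Fas, the death receptor, gave 359.7, 384 and 239 on the B arrays and 999.9, 572 and 564 on the CD4 arrays (log2 difference -1.06 ± 0.27 (SE), limma adjusted p = 0.0154), a difference that missed the threshold without B K or CD4 A (limma adjusted p = 0.105 to 0.119). Fasl, its ligand on cytotoxic and activated T cells, gave 293, 267 and 192 on the B arrays and 811, 552 and 667 on the CD4 arrays, and no arrays overlapped (log2 difference -1.38 ± 0.31 (SE), limma adjusted p = 0.00424).

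Of 11 ligands of this family 1 was lower in B and 10 not called (median -0.42), and of 10 receptors 2 were lower and 8 not called (median -0.41). Without CD4 A, or without B K, neither receptor was called. For comparison, 28 of all 375 named genes were called (7.47%), 15 of them lower in B. Tnfsf8, the ligand of CD30, was lower on every B array, at 132, 219 and 311 against 415, 504 and 403, and narrowly missed the threshold (log2 difference -1.02 ± 0.32 (SE), limma adjusted p = 0.0553). Tnfsf11, the cytokine RANKL, was at 122, 60.8 and 20.6 on the B arrays and 189.5, 298 and 231 on the CD4 arrays (log2 difference -1.78 ± 0.58 (SE), limma adjusted p = 0.069). Its groups were separate but the difference was not called. Ltb, which encodes the membrane anchor of lymphotoxin, was high in both cell types, at 20952, 24651 and 22439 on the B arrays and 20788, 20106 and 24434 on the CD4 arrays (log2 difference 0.06 ± 0.25 (SE), limma adjusted p = 0.94).

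**Figure D2:**
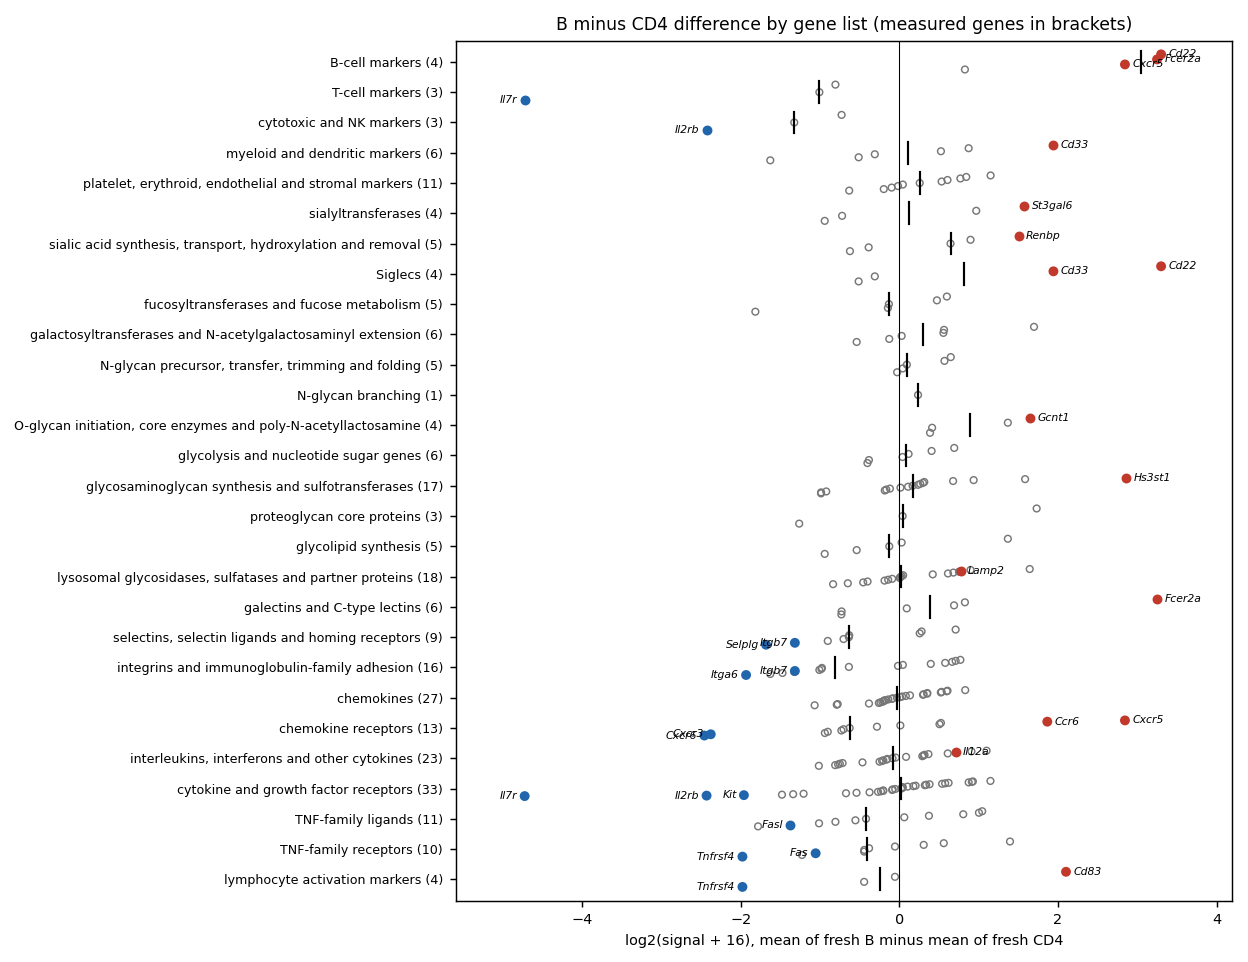
Difference in log2(signal + 16), fresh B mean minus fresh CD4 mean, for every measured member of 28 gene lists; filled points passed limma's adjusted p of 0.05 (red higher in B, blue lower), open points did not, black bars are list medians, and a gene can stand in more than 1 list. The B-cell markers have a median of 3.05, and the chemokines, platelet and endothelial, fucose and N-glycan lists hold no filled point.

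The adhesion and homing genes called in their lists (Selplg, Itgb7 and Itga6) were likewise lower in B, and most listed genes were not called. Selplg encodes PSGL-1, the main selectin ligand of leukocytes, and gave 4498, 4033 and 1962 on the B arrays and 13553, 14011 and 6279.8 on the CD4 arrays. Groups did not overlap, and in each the array of scan period 4 (B K, CD4 C) was lowest (log2 difference -1.68 ± 0.29 (SE), limma adjusted p = 0.000357). Itgb7, the integrin beta 7 chain of the gut-homing receptor, gave 2189, 2226 and 2199.7 on the B arrays and 9584, 6183 and 2848 on the CD4 arrays (log2 difference -1.32 ± 0.31 (SE), limma adjusted p = 0.00737). The B values were nearly identical and the CD4 values spread over 3-fold, and the call ended without CD4 A (difference -0.92, limma adjusted p = 0.0748). Its other probe set gave a difference of -1.28 ± 0.30, limma adjusted p = 0.00639. Itga6, the alpha 6 chain of laminin-binding integrins, gave 276, 209.9 and 362 on the B arrays and 1899, 1625 and 428 on the CD4 arrays, with CD4 C only slightly above the highest B array (log2 difference -1.94 ± 0.43 (SE), limma adjusted p = 0.00424). Its call ended with scan day as a block (limma adjusted p = 0.0596), without the pair B G and CD4 A (0.094) or B E and CD4 B (0.127), and with the compared arrays alone (0.199).

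Of 16 integrins and immunoglobulin-family adhesion genes, 2 were lower and 14 not called (median -0.81), and without CD4 C 4 were lower. Of 9 selectins, selectin ligands and homing receptors, 2 were lower and 7 not called (median -0.64). Itgb7 is counted in both lists. Over all named genes 28 of 375 were called (7.47%), 15 of them lower in B. Cd2, an adhesion receptor of T cells, gave 3003, 2429 and 1553 on the B arrays and 6878, 7011 and 1939.5 on the CD4 arrays (log2 difference -1.01 ± 0.35 (SE), limma adjusted p = 0.0969). CD4 A and B exceeded all B arrays and CD4 C lay inside the B range. Itgax, the integrin CD11c of dendritic cells, overlapped between the groups, with a B range of 116 to 1505 (-1.63 ± 0.61, limma adjusted p = 0.126).

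Enzymes of glycan and sialic acid metabolism were called in 4 genes by their brightest probe set (Hs3st1, St3gal6, Renbp and Gcnt1), each higher in B. Most measured genes of their lists were not called. Over all named genes 28 of 375 were called (7.47%), and no share was counted for these enzymes as a set. Hs3st1, a sulfotransferase that adds the 3-O-sulfate to heparan sulfate, gave 853, 1453 and 751.6 on the B arrays and 141, 52.7 and 221 on the CD4 arrays. The groups were separate and the mean B signal was 7.36 times the mean CD4 signal (log2 difference 2.86 ± 0.47 (SE), limma adjusted p = 0.000203). Among 17 glycosaminoglycan synthesis genes and sulfotransferases Hs3st1 was the 1 called, against a list median of 0.17. Chst3, which sulfates chondroitin, was dim at 163, 49.1 and 304 on the B arrays and 36.3, 39.2 and 31.9 on the CD4 arrays (log2 difference 1.58 ± 0.52 (SE), limma adjusted p = 0.0714). Its groups did not overlap but B E lay close to CD4. Syndecan-4, Sdc4, a proteoglycan core, overlapped between groups (1.73 ± 0.63, limma adjusted p = 0.117), and none of 3 proteoglycan cores was called.

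St3gal6, which adds alpha 2,3-linked sialic acid to galactose, gave 1039.8, 1861 and 896 on the B arrays and 430.1, 344 and 408 on the CD4 arrays. No arrays overlapped, though B E was well above the other B arrays (log2 difference 1.58 ± 0.37 (SE), limma adjusted p = 0.00714), and without it the limma adjusted p was 0.0621 (difference 1.26). Renbp, the renin-binding protein that acts as N-acetylglucosamine 2-epimerase, gave 697, 798 and 659 on the B arrays and 186, 260.3 and 294 on the CD4 arrays, with the lowest B array over 2 times the highest CD4 array (log2 difference 1.50 ± 0.31 (SE), limma adjusted p = 0.00245). Renbp missed the threshold without the pair B G and CD4 A (limma adjusted p = 0.0514) and with the compared arrays alone (0.0768). St6galnac4, which forms the disialyl end of O-glycans, missed the threshold (0.97 ± 0.31, limma adjusted p = 0.066), as did Cmah, which turns N-acetyl- into N-glycolylneuraminic acid (0.90 ± 0.52, limma adjusted p = 0.435), and the CMP-sialic acid transporter Slc35a1 (0.64 ± 0.24, limma adjusted p = 0.135). All 3 B arrays exceeded all 3 CD4 arrays for Cmah and Slc35a1. Of 4 sialyltransferases 1 was higher and none lower (median 0.12), and of 5 genes of sialic acid metabolism 1 was higher and none lower (median 0.64).

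Gcnt1, the core 2 O-glycan branching enzyme, passed the threshold on overlapping arrays, at 204, 272 and 25.9 on the B arrays and 15.8, 30.2 and 42.2 on the CD4 arrays (log2 difference 1.65 ± 0.49 (SE), limma adjusted p = 0.0394). B G and E were high and B K lay within the CD4 range, and without B K the difference was 2.51. Its call ended without any 1 of B G, B E, CD4 A or CD4 B (limma adjusted p = 0.0855 to 0.273), and its other probe set, dim on all 6 arrays, gave -0.11 ± 0.39, limma adjusted p = 0.936. B3gnt5, the lactotriaosylceramide synthase of glycolipids, was higher on every B array at 447, 638 and 480.4 against 123, 192 and 288, but did not pass (log2 difference 1.37 ± 0.51 (SE), limma adjusted p = 0.126). Fut7, which makes the fucosylated sialyl Lewis x end bound by selectins, was lower on every B array, at 77.5, 68.8 and 34.2 against 331, 173 and 251, and was not called either (log2 difference -1.82 ± 0.66 (SE), limma adjusted p = 0.109). Fut2, an alpha 1,2-fucosyltransferase, had probe sets that disagreed: the brighter gave 0.60 ± 0.73, limma adjusted p = 0.815 with overlapping groups, and a dimmer one, at 72.1, 72.7 and 88.9 on the B arrays and 13.7, 13.3 and 25.9 on the CD4 arrays, gave 1.50 ± 0.40, limma adjusted p = 0.019. Fut2's call was noted after its values were seen.

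No member was called among 5 fucosyltransferase and fucose genes by their brightest probe set, 6 galactosyltransferases, 5 genes of N-glycan precursor synthesis and folding, 6 genes of glycolysis and nucleotide sugars or 5 of glycolipid synthesis, and the single branching enzyme measured, Mgat3, overlapped between groups (0.23 ± 0.51, limma adjusted p = 0.905). Medians of these lists ran from -0.13 (fucose genes) to 0.29 (galactosyltransferases), apart from Mgat3 alone. B3galt6, which builds the linker of glycosaminoglycans, had the largest size in these lists after Fut7, at 291, 325 and 488 on the B arrays and 242, 93.9 and 38.6 on the CD4 arrays (log2 difference 1.70 ± 0.67 (SE), limma adjusted p = 0.166). B arrays were all higher, with a wide CD4 spread.

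In the lysosome, Lamp2, a membrane protein of that organelle, gave 635, 649 and 558 on the B arrays and 400.3, 334 and 327 on the CD4 arrays (log2 difference 0.77 ± 0.22 (SE), limma adjusted p = 0.0275), and Lipa, the acid lipase that frees cholesterol from its esters, gave 1204, 1197 and 1039 on the B arrays and 2119, 2089 and 2124 on the CD4 arrays (log2 difference -0.87 ± 0.24 (SE), limma adjusted p = 0.0226). Neither overlapped, and both calls rest on small differences. Lamp2 was not called without any 1 of B G, B E, CD4 B or CD4 C (limma adjusted p = 0.0696 to 0.0932), nor Lipa without any 1 of B K, CD4 A or CD4 B (0.0561 to 0.086). Of 18 lysosomal glycosidases, sulfatases and partner proteins 1 was higher and none lower (median 0.02). Naglu, which trims heparan sulfate in the lysosome, was higher on every B array, at 496, 397 and 541 against 351, 61.5 and 119.8, without passing (log2 difference 1.64 ± 0.57 (SE), limma adjusted p = 0.0893).

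Signalling genes completed the called set. Bmp7, a bone morphogenetic protein, was near the floor on B arrays, at 11.5, 23.7 and 12.1, and stood at 204, 252 and 148 on CD4 arrays (log2 difference -2.77 ± 0.51 (SE), limma adjusted p = 0.000766). The groups were separate, and no array left out ended the call. Acvrl1, the receptor ALK1 for bone morphogenetic proteins in endothelium, gave 161, 126 and 124 on the B arrays and 467, 389 and 306 on the CD4 arrays (log2 difference -1.39 ± 0.39 (SE), limma adjusted p = 0.0275). It lost its call without any 1 of B E, B K, CD4 A or CD4 B (limma adjusted p = 0.0794 to 0.107). Sipa1, which inactivates the small GTPase Rap1, gave 3233, 3889 and 3137 on the B arrays and 1759, 1997 and 765 on the CD4 arrays (log2 difference 1.28 ± 0.29 (SE), limma adjusted p = 0.00568), and its other probe set gave 1.21 ± 0.42, limma adjusted p = 0.0893. B exceeded CD4 on every array for both. The lowest CD4 value of the first was on CD4 C, the array with the high 3'/5' ratios, and with that ratio as a covariate the difference was 0.80 (limma adjusted p = 0.0644). The Sipa1 call also ended without the pair B K and CD4 C (0.0573) and with the compared arrays alone (0.283). Fzd4, a Wnt receptor added after its values were seen, was called on overlapping arrays (-1.83 ± 0.52, limma adjusted p = 0.0295), and its second probe set disagreed (0.30 ± 0.54, limma adjusted p = 0.889).

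Marker lists give the signal each population carried of genes listed for each cell type, which does not count such cells. Of 28 listed B-cell markers 4 could be named on the array, of 25 T-cell markers 3, of 14 cytotoxic and natural killer markers 3, of 29 myeloid and dendritic markers 6, and of 22 platelet, erythroid, endothelial and stromal markers 11. Genes of the antigen receptors, and Cd4 itself, were not among them. Summed B-marker signal ran 20353 to 25171 on the B arrays and 2013 to 2786 on the CD4 arrays, with no overlap. On CD4 arrays the mean was 10.1% of the B mean for Cd22, 10.5% for Fcer2a and 14.4% for Cxcr5. For Cd22 and Fcer2a these are the probe sets with shared probes, and their other probe sets had a lower CD4 share. None of these signals was at 0, but without a detection call they cannot be placed above background. Summed T-marker signal ran 1917 to 3490.4 on the B arrays and 7534 to 14983 on the CD4 arrays. Most of that sum on the B arrays was Cd2, which overlapped between the groups and was not called (limma adjusted p = 0.0969). Il7r on B arrays was 3.84% of its CD4 mean.

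Signals of cytotoxic and natural killer genes differed among the B arrays themselves. The summed signal of that list was 1873 on B G, 2206 on B E and 396 on B K, against 3775 to 4714 on the CD4 arrays. Klrd1, the CD94 chain of natural killer receptors, was 821, 1054 and 243 on the B arrays and 963, 1267 and 827 on the CD4 arrays (-0.73 ± 0.43, limma adjusted p = 0.435). B K was low for Klrd1, Il2rb and Ccl5 alike, and the part of such cells in the Il2rb difference was not tested. Of the 3 cytotoxic markers 1 was lower in B (Il2rb), of the 6 myeloid markers 1 was higher (Cd33), and of the 11 platelet and stromal markers none was called. Summed myeloid signal overlapped, at 1816 to 4646 on the B arrays and 2886 to 3829.7 on the CD4 arrays, and so did platelet and stromal signal, at 4543 to 5216 on the B arrays and 3153 to 6124 on the CD4 arrays.

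The arrays were scanned over several periods, and each of 3 periods held 1 B and 1 CD4 array: B G with CD4 A, B E with CD4 B, and B K with CD4 C, the last 2 pairs on the same day. B G and CD4 A also came from different chip lots, while the last 2 pairs each shared a lot. Chip lot was not fitted. Within these pairs 49 of the 50 called probe sets had the same direction in all 3 periods, which the absence of overlap fixes for 48 of them. When a pair was left out and the calls were made on the other arrays, 30, 35 and 46 probe sets were called without the pairs of periods 1, 3 and 4. The left-out pair then showed the same direction for 27 of 30, 33 of 35 and 41 of 46. The median ratio of its difference to the fitted one was 0.906, 0.885 and 0.644. The same-direction share over all probe sets was not counted.

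With scan period as a block 59 probe sets were called, 24 higher and 35 lower in B, and with scan day as a block 38, 17 higher and 21 lower. Of the 26 called genes named by the rule, scan day as a block ended the call of 8, Cd33, Lamp2, Cxcr3, Itga6, Acvrl1, Itgb7, Fas and Gcnt1, with limma adjusted p = 0.0538 (Cxcr3) to 0.317 (Gcnt1). Itgb7 was at 0.123 there and Acvrl1 at 0.136. Leaving out the pairs of periods 1, 3 and 4 ended 10, 10 and 7 calls, among the last that of Fasl (limma adjusted p = 0.0538). Fitted on the 6 compared arrays alone, which leaves fewer arrays to estimate the spread, 17 of the 26 were not called (limma adjusted p = 0.0637 to 0.43), and Cd22, Fcer2a, Hs3st1, Cxcr5, Cd83, Ccr6, Il7r, Bmp7 and Cxcr6 were.

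**Figure D3:**
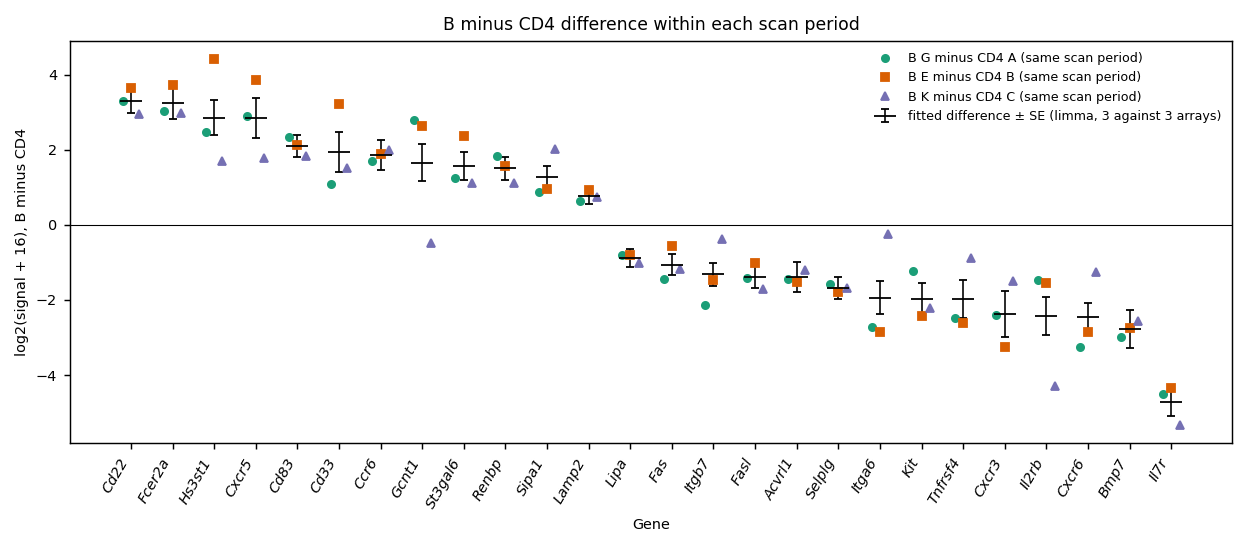
Difference in log2(signal + 16), B minus CD4, for the 26 called genes named by the rule, in each of the 3 scan periods (coloured points, 1 B and 1 CD4 array each) and as fitted by limma over 3 against 3 arrays (black bar, error bar SE). Each gene has 3 points on 1 side of 0 except Gcnt1, whose period 4 pair lies below 0; that pair also lies nearest to 0 for Itga6, Itgb7 and Tnfrsf4.

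Against fresh CD8 cells, 61 probe sets were called (8.18%), 31 higher (4.16%) and 30 lower in B (4.02%), a share of higher calls of 50.8% that was 38.3% with each array centred on its median; this comparison uses the same 3 B arrays, so its values are given only beside the first. Differences of B from CD8 were called for Cd22 (3.80 ± 0.32, limma adjusted p = 3.93e-09), Ccr6 (2.0 ± 0.41, limma adjusted p = 0.00162) and Il7r (-5.06 ± 0.36, limma adjusted p = 3.51e-10). CD8 arrays read 7737, 10069 and 7431 for Il7r, in the range of the CD4 arrays or above it. For Hs3st1 the CD8 signals of 32.7, 12.3 and 33.3 were dim, and B minus CD8 was 4.61 ± 0.47, limma adjusted p = 1.15e-07.

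For several genes called against CD4, the CD8 arrays overlapped the B arrays. St3gal6 was 1229, 1081 and 635 on CD8 arrays, with A and B inside the B range and C below it, and B minus CD8 was 0.34 ± 0.37, limma adjusted p = 0.76. Fasl was 224, 242 and 258 on CD8 arrays, inside the B range (0.03 ± 0.31, limma adjusted p = 0.986 for B minus CD8). Tnfrsf4 was 286, 92.5 and 164 there, overlapping B (-0.16 ± 0.51, limma adjusted p = 0.963), and Bmp7 was 15.4, 102 and 35.2, with CD8 A inside the B range (-0.88 ± 0.51, limma adjusted p = 0.397). Kit (-1.07 ± 0.41, limma adjusted p = 0.12), Acvrl1 (-0.65 ± 0.39, limma adjusted p = 0.422) and Lipa (-0.52 ± 0.24, limma adjusted p = 0.243) were also not called against CD8. A call against one T cell subset and not the other does not show that the 2 differences differ, which was not tested.

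The B minus CD4 contrast was also taken in cultured cells. Their arrays enter the fresh comparison only through the shared estimate of spread. Between B cells with anti-IgM and IL-4 and CD4 cells with IL-2 and IL-4, 153 probe sets were called (20.5%), 78 higher (10.5%) and 75 lower in B (10.1%). The higher share of these calls, 51%, was 27.6% of 123 calls after each array was centred on its median, which moved the median difference over all probe sets from 0.19 to -0.17, and 34% of 47 calls with scan day as a block. Of the 28 genes called in fresh cells, 18 were called here and 26 had the same sign. The same-sign share over all genes was not counted. Cd22 stood at 5328 ± 2377 in cultured B and 496 ± 54.8 in cultured CD4 cells (signal mean ± SD, n = 3 each; 3.30 ± 0.32, limma adjusted p = 1.88e-08). Il7r stood at 205 ± 96.9 and 1878 ± 230.1 (-3.20 ± 0.36, limma adjusted p = 2.55e-07). Hs3st1 (3.09 ± 0.47, limma adjusted p = 2.04e-05), Cxcr5 (3.12 ± 0.54, limma adjusted p = 9.18e-05), St3gal6 (1.54 ± 0.37, limma adjusted p = 0.00331) and Selplg (-1.35 ± 0.29, limma adjusted p = 0.00119) were also called in culture. Cd33 (0.29 ± 0.53, limma adjusted p = 0.758), Gcnt1 (0.20 ± 0.49, limma adjusted p = 0.828), Itga6 (-0.33 ± 0.43, limma adjusted p = 0.66) and Acvrl1 (-0.07 ± 0.39, limma adjusted p = 0.925) were not.

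The cultured minus fresh difference of the contrast was itself tested, and 53 probe sets passed (7.1%), 25 upward (3.35%) and 28 downward (3.75%). This split depended on the processing: 47.2% of the calls were upward, but 9.43% of 53 after median centring, where the median over all probe sets went from 0.24 to -0.20, 16.7% of 18 with the compared arrays alone and 18.2% of 11 with scan day as a block. Tnfrsf4 widened: cultured CD4 cells reached 12651 ± 2199 against 784 ± 510.1 in fresh ones, and cultured B cells 480.2 ± 326 against 150.2 ± 46.7 (change of the log2 difference -2.95 ± 0.72, limma adjusted p = 0.0117). Cxcr6 narrowed, with 278 ± 156 in cultured B and 313 ± 49.3 in cultured CD4 cells (2.16 ± 0.52, limma adjusted p = 0.0107). Renbp widened as cultured B cells reached 3238 ± 581 and cultured CD4 cells 345 ± 138 (1.73 ± 0.44, limma adjusted p = 0.0159). Cd83 reached 14012 ± 2366 in cultured B and 1369.9 ± 546 in cultured CD4 cells (1.32 ± 0.40, limma adjusted p = 0.0436), a call that held in 11 of 24 alternatives. After median centring the changes of Cxcr6, Renbp and Cd83 kept their direction but not their calls (limma adjusted p = 0.0673, 0.112 and 0.289), and that of Tnfrsf4 was called (0.0074). Treatments of the B and CD4 cultures differ beyond IL-4, so culture and stimulus cannot be told apart.

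**Figure D4:**
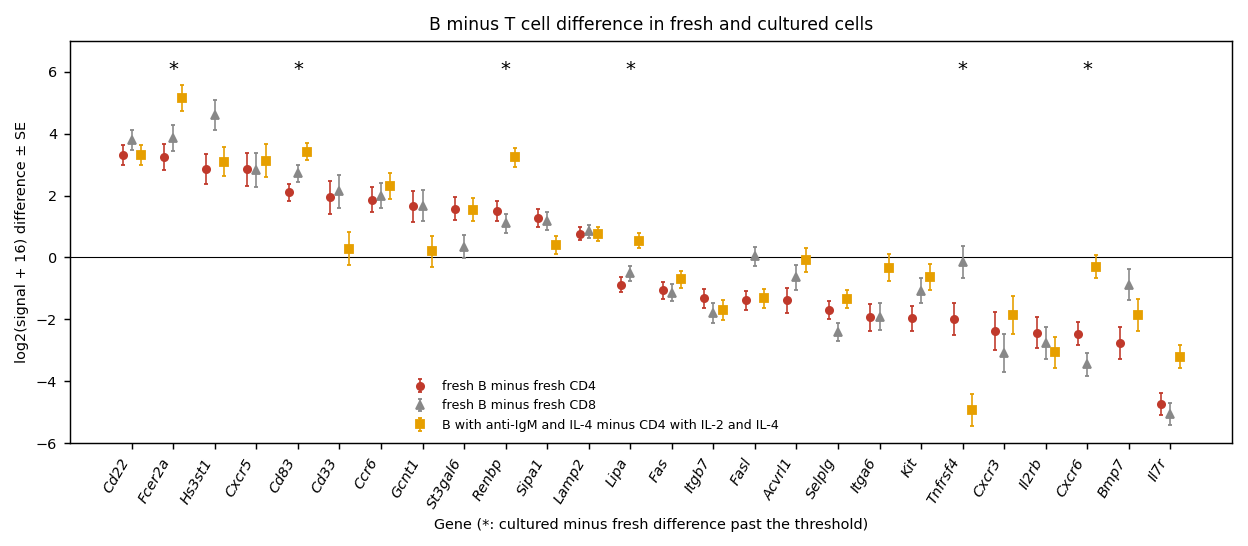
Difference in log2(signal + 16) with its SE for the 26 called genes named by the rule, as fresh B minus fresh CD4, fresh B minus fresh CD8, and cultured B minus cultured CD4 (limma, 3 arrays per group); an asterisk marks a cultured minus fresh change past the threshold. The first 2 contrasts share the fresh B arrays, and Tnfrsf4 reaches -4.93 in culture while Cxcr6 is at -0.30.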

How the data were processed

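The authors deposited linear signal intensity values for 30 arrays, 1 for every probe set. Which program summarised and scaled them was not given in the sources used here, and no detection call was used. Array medians ran from 115 to 204, and precision is limited by the number of arrays. The 6 control probe sets were left out. RefSeq accessions were matched to symbols through a RefSeq table: 449 of 462 matched and 1 more matched by synonym, giving 450 probe sets for 375 genes, with 296 unnamed. A gene is represented by its brightest probe set over all arrays.

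Values were transformed as log2(signal + 16), and 10 group means were fitted to all 30 arrays with limma 3.58.1 (20 residual degrees of freedom), tested two-sided with Benjamini-Hochberg adjustment at 0.05 over 746 probe sets. The fit was tested on simulated data. Genes named are up to 15 per direction that were called, did not overlap and were brighter than the median, and up to 4 per list by size; members and lists were chosen with earlier results of these data known. Outside that rule Ccl5, Il10ra, Ltb, Il12a, Fzd4 and the dimmer Fut2 probe set were named after their values were seen. Scan days and chip lots came from the deposited experiment files, and periods were runs with no gap over 45 days. Alternatives tried were pseudocounts of 1 and 64, quantile normalization, median centring, leaving out the dimmest 40%, the compared arrays alone, each array or scan pair left out, a 3'/5' covariate, blocks of letter, scan day and scan period, 1 probe set per gene, and a robust trend. Scan period, left-out pairs and list counts without CD4 C were chosen after seeing the data.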

Additional observations from a re-analysis of the deposited data

Results flagged for a closer look

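Among the 28 called genes, 7 had a B minus CD4 difference that changed between fresh and cultured cells, by a test of that change itself (limma adjusted p over all probe sets). They were selected on the fresh arrays that this test also uses. Toward B in culture the change of the log2 difference was 2.16 for Cxcr6 (limma adjusted p = 0.0107), 1.73 for Renbp (0.0159), 1.41 for Lipa (0.0103), 1.90 for Fcer2a (0.0498), 3.05 for Fzd4 (0.0113) and 1.32 for Cd83 (0.0436). Toward CD4 it was -2.95 for Tnfrsf4 (limma adjusted p = 0.0117). Fzd4 was named after its values were seen and overlapped between the fresh groups. For the other 6, of 24 alternatives each, the call held in 22 for Tnfrsf4, 21 for Cxcr6, 21 for Lipa, 20 for Renbp, 11 for Cd83 and 7 for Fcer2a. The other probe set of Fcer2a gave 0.64 ± 0.79 (SE; limma adjusted p = 0.693).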

How the results depend on the processing

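By title letter no paired analysis was possible because the fresh B arrays (G, E and K) and the fresh CD4 arrays (A, B and C) share no letter, while scan day and scan period could be fitted as blocks. None of the 26 called genes named by the rule changed sign under the alternatives run. For all of them but Gcnt1 the groups do not overlap. Leaving out an array or pair, or changing the pseudocount, therefore could not turn their sign. Of 28 list medians, 13, none over 0.26 in size, changed sign without 1 array. The 50 probe sets called between fresh B and CD4 cells became 15 (9 higher, 6 lower) with the compared arrays alone, 28 (13 higher, 15 lower) with 1 probe set per gene, which tests fewer features, and 30 without the pair of scan period 1, which lowered the lower calls from 29 to 13. Lower calls were 19 with median centring, where 50% of the calls were higher against 42%, and 19 without the pair of period 3. Leaving out 1 array gave 38 (without CD4 A) to 56 calls (without CD4 C), of which 16 to 36 were lower, and 19 were lower without B K. With 1 array left out the share of higher calls ran from 35.7% (without CD4 C) to 57.9% (without CD4 A), and it was 32.2% with the 3'/5' covariate and 60% with the compared arrays alone. Against CD8 the 61 calls became 26 with the compared arrays alone, 17 with scan day as a block and 38 (without CD8 B) to 55 with 1 array left out. The 153 calls in culture became 47 with scan day as a block and 93 with 1 probe set per gene, and the 53 calls for the change in culture became 11, 32 and, with the compared arrays alone, 18. The cause of these shifts was not tested. With the compared arrays alone Il2rb, Kit and Selplg lost their calls, each their single loss. Cd22, Fcer2a, Hs3st1, Cxcr5, Cd83, Ccr6, Il7r, Bmp7 and Cxcr6 held under every alternative in which they were tested. Hs3st1, Cxcr5, Bmp7 and Kit were tested in 20 alternatives rather than 21, because leaving out the dimmest probe sets removed them. Dim signals cannot be placed above background without a detection call, and 3 arrays per group limit what differences can be seen.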

Other observations

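Of the 50 probe sets called between fresh B and fresh CD4 cells, 18 could not be named here, 5 higher and 13 lower in B, with log2 differences from -4.60 to 3.05. Over all probe sets the fresh B arrays correlated with each other at Pearson's r of 0.871 to 0.934 and the fresh CD4 arrays at 0.841 to 0.920, as a description across probe sets, which are not independent. Pairs of 1 B and 1 CD4 array scanned in the same period correlated at 0.883, 0.866 and 0.812.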
